A study of Mus musculus with 20 samples.

Results

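The LPS response of aged BV-2 microglia was read from 10 of the 20 RNA-seq libraries of the series: 5 cultures of aged BV-2 cells left untreated and 5 exposed to bacterial lipopolysaccharide (LPS) at 100 ng/ml for 6 hours. Members were chosen by their labels alone, and all 12799 genes with enough counts to be tested were described. BV-2 is an immortalised line of microglia, the resident macrophages of the brain, established from wild-type (WT) mouse brain cultures. Aged cells had been sub-cultivated over a long time before they were frozen, and the young cells set beside them were at low passage, either untreated or with the same LPS exposure (5 cultures each). Each of the 5 batches held 1 culture of every group. The series asks how ageing in culture, without any other challenge, changes microglia and their reaction to an inflammatory stimulus. Nothing in the labels or methods says that the 5 aged cultures came from separate long-term cultivations, and all come from 1 cell line, so p-values measure the spread between these cultures only.

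LPS, a component of the outer membrane of gram-negative bacteria, is handed by CD14 and MD-2 (encoded by *Ly96*) to the receptor TLR4. Adaptors of the MyD88 branch lead to NF-κB and AP-1, which drive cytokine and chemokine genes, and the TRIF branch (*Ticam1*) leads to IRF3, to type I interferon and then to a later set of antiviral genes. Feedback regulators induced by the same factors then limit the signal, and activated microglia lose transcripts of their resting state.

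Total counts of the 10 libraries ranged from 12528859 to 16829292, which places the floor of 3 counts at 0.165 to 0.247 CPM (counts scaled to a common library total with TMM factors). Levels below are CPM unless TPM, which also divides by transcript length, is named. Within each group, the pairs of libraries differed by more than counting error (chi-square per gene of 2.42 to 25.3 over 20 pairs). Markers of macrophages were present, with mean untreated levels of 893 CPM for *Cd68* and 630.2 CPM for *Csf1r*, whereas the defining microglial genes *Sall1* and *Siglech* had no count in any of the 10 libraries and *Cx3cr1* and *P2ry12* stayed at means below 1 CPM. Neuronal, astrocyte, oligodendrocyte, fibroblast, lymphocyte and granulocyte markers summed to at most 3.23 CPM in any library. The endothelial list summed to 393 to 435 CPM untreated and 424 to 495 CPM with LPS, held by *Flt1*, *Kdr* and *Vwf*, while *Cldn5* and *Tek* were at 0. Of these 3, *Kdr* was called higher (log2 fold change 0.22 ± 0.065, not called with library sizes in place of TMM factors, 0.06), and *Vwf* (0.27) was called only without batch 2 (0.36). Their part in the results below was not tested.

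One library stood apart in the treated level of the genes that rose. The LPS-treated culture of batch 3 was the highest of the 5 for 428 of the 852 genes that rose at least 2-fold (50.2%), against 52 to 197 for the other 4. Its mean squared distance from the group mean was 0.0746 on the log2 scale, against 0.0403 to 0.0544. The untreated culture of batch 3 was also the highest of its group for 273 of the 852 genes (32.0%), with a distance of 0.0563 against 0.0327 to 0.0476. The median within-batch log2 difference of the 852 genes was 1.85 in batch 3, 1.90 in batch 1 and 1.71 to 1.79 in the rest. Among young LPS-treated cultures the one of batch 3 was highest for 180 of the same 852 genes. Without batch 3, 842 of the 852 remained called higher, with a median log2 fold change of 1.90 in place of 1.89.

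LPS changed the expression of over 1 in 2 genes of the aged cells. Of 12799 genes, 6968 (54.4%) were called in edgeR's quasi-likelihood test with Benjamini-Hochberg adjustment (n = 5 per group), 3523 of them higher (27.5%) and 3445 lower (26.9%). Every count of a gene list below is to be read beside these 2 shares. Most changes were small, with a median log2 fold change of 0.46 among the called rises and -0.47 among the falls. Large changes were mostly rises: 852 genes rose and 535 fell at least 2-fold, 226 rose and 18 fell at least 8-fold, and 102 rose and 2 fell at least 32-fold. With genes at 0 counts set at their bounds, 226 rose at least 8-fold and 90 at least 32-fold. In 5138 genes (40.1%) the 5 treated and 5 untreated cultures did not overlap, and of the called genes 3391 rose and 3253 fell in all 5 batches. With library sizes alone in place of TMM factors every log2 fold change moved down by a median of 0.16, and 28.4% of the called genes were higher instead of 50.6%, so small changes below are relative to the TMM scale. In bulk RNA a change in the number of cells that express a gene and a change per cell cannot be told apart.

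**Figure D1:**
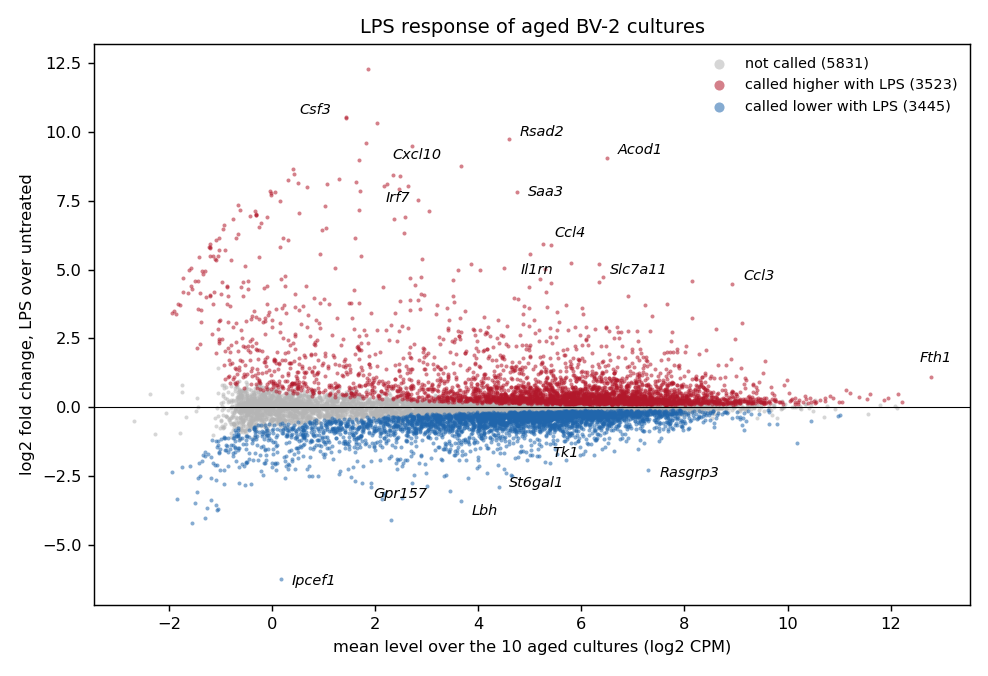
Log2 fold change with LPS against mean level (log2 CPM over the 10 aged cultures) for the 12799 genes tested, 1 point per gene, with the 3523 called rises in red, the 3445 called falls in blue and uncalled genes in grey. Genes at 0 counts in every library of a group are drawn at their lower bound. Rises reach further than falls: *Rsad2* lies at 9.72 and *Acod1* at 9.04, and the lowest fall with a mean above 3 log2 CPM, *Lbh*, at -3.39.

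The largest rises among well expressed genes (3 log2 CPM or more on average, no overlap between groups) were antiviral, metabolic and chemotactic. *Rsad2*, which encodes the antiviral enzyme viperin, held 1.29, 1.01, 0.171, 0.658 and 1.20 CPM in the untreated cultures of batches 1 to 5 and 810.0, 408, 1255, 504 and 615 CPM with LPS (log2 fold change 9.72 ± 0.66, SE, adjusted p = 2.4e-11, edgeR). *Acod1*, the enzyme that makes itaconate, rose from 5.17, 4.10, 2.00, 2.74 and 6.32 CPM to 2361, 1912, 2095, 1836 and 2319 CPM (9.04 ± 0.51). All treated cultures lay far above all untreated ones for both genes, and *Acod1* varied little between the treated cultures while *Rsad2* was highest in batch 3. Next came the chemokine gene *Cxcl10* (8.75), the acute-phase gene *Saa3* (7.80), the interferon regulatory factor gene *Irf7* (7.13), the chemokine gene *Ccl4* (5.91) and the ADP-ribosyltransferase gene *Parp14* (5.89). The costimulatory receptor gene *Cd40* (5.57), *Il1rn* for the interleukin-1 receptor antagonist (5.23), the cystine transporter gene *Slc7a11* (5.22), the 2′-5′-oligoadenylate synthetase gene *Oas2* (5.19) and the fatty-acid receptor gene *Gpr84* (5.04) completed the 12. *Irf7* overlaps another annotated gene, and the strand setting of the counting is not given in the sources used here.

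The largest falls were shallower and touched receptors and signalling genes. *St6gal1*, a sialyltransferase, held 61.4, 55.7, 50.5, 58.8 and 58.8 CPM untreated and 8.56, 8.73, 6.55, 7.19 and 7.30 CPM with LPS (-2.90 ± 0.076, adjusted p = 2.63e-18, edgeR). *Rasgrp3*, an activator of Ras and Rap that acts in TLR signalling of macrophages, fell from 366, 333, 309, 344 and 379 CPM to 65.1, 68.4, 74.1, 76.2 and 76.4 CPM (-2.27 ± 0.096). All treated cultures of both genes lay far below the lowest untreated one. *Lbh* (-3.39), the orphan receptor gene *Gpr157* (-3.01), *Lrrc14b* (-2.57), the oxysterol receptor gene *Gpr183* (-2.50), *Klhl6* (-2.50) and the efferocytosis receptor gene *Mertk* (-2.46) also fell. So did *Nanos1* (-2.43), the stress gene *Sesn1* (-2.37), the chemokine receptor gene *Cxcr4* (-2.36) and the ribonuclease gene *Rnase4* (-2.23).

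By level per length, the most abundant transcripts among genes changed at least 2-fold were those of the chemokine *Ccl3* (9943 TPM with LPS, 499 TPM untreated), of the ferritin heavy chain *Fth1* (9797 and 5099 TPM) and of *Acod1* (2638 and 5.73 TPM). *Mapkapk2*, a p38 target kinase that stabilises cytokine mRNA, stood at 1482 TPM, *Ccl4* at 1471, the haem oxygenase gene *Hmox1* at 1165, *Plek* at 1067 and the annexin gene *Anxa5* at 1027 TPM with LPS. The genes that rose at least 2-fold took 2.90% to 3.15% of all counts in untreated and 8.77% to 10.1% in treated libraries. Those that fell at least 2-fold took 1.46% to 1.75% and 0.499% to 0.593%.

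A group of 89 called genes held at most 3 counts in every untreated aged library, and 64 of them averaged more than 1 CPM with LPS. *Nos2*, the inducible nitric oxide synthase, had 1 count in all untreated libraries together and 65.7, 74.6, 219.9, 87.2 and 62.1 CPM with LPS, a ratio of 9284 with a 95% counting interval of 1510.3 to 332531 (exact Clopper-Pearson). *Csf3*, encoding the granulocyte growth factor G-CSF, had no count untreated and 40.0, 46.2, 70.8, 63.3 and 51.0 CPM with LPS, at least 1468-fold higher against 3 counts over the group. The neutrophil chemokine gene *Cxcl2* behaved alike, from 0 counts to 41.5, 55.7, 67.4, 54.8 and 49.2 CPM, at least 1453-fold. The other most abundant genes of this kind were the TNF receptor adaptor gene *Traf1* (0.0604 ± 0.0700 CPM to 90.2 ± 13.2 CPM, mean ± SD, n = 5), the GTPase gene *Gbp2* (0.0734 ± 0.0514 to 64.0 ± 28.5 CPM), *Rtp4* (0.0883 ± 0.0394 to 47.3 ± 8.18 CPM), *Samd9l* (0.0751 ± 0.0513 to 22.7 ± 10.8 CPM) and *Gbp5* (0 to 14.7 ± 9.87 CPM). In the opposite direction 21 genes fell to at most 3 counts in every treated library, and only 3 of them had averaged above 1 CPM. *Ipcef1* was the most abundant, at 8.14, 5.92, 4.73, 5.93 and 6.25 CPM untreated and 0, 0.165, 0.138, 0 and 0.0723 CPM with LPS. *Gprc5c*, *Gm26714*, *Itpka*, *Gm10384*, *Abca6*, *P2ry12* and *Gm20234* followed, from untreated means of 0.835 to 1.05 CPM.

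**Figure D2:**
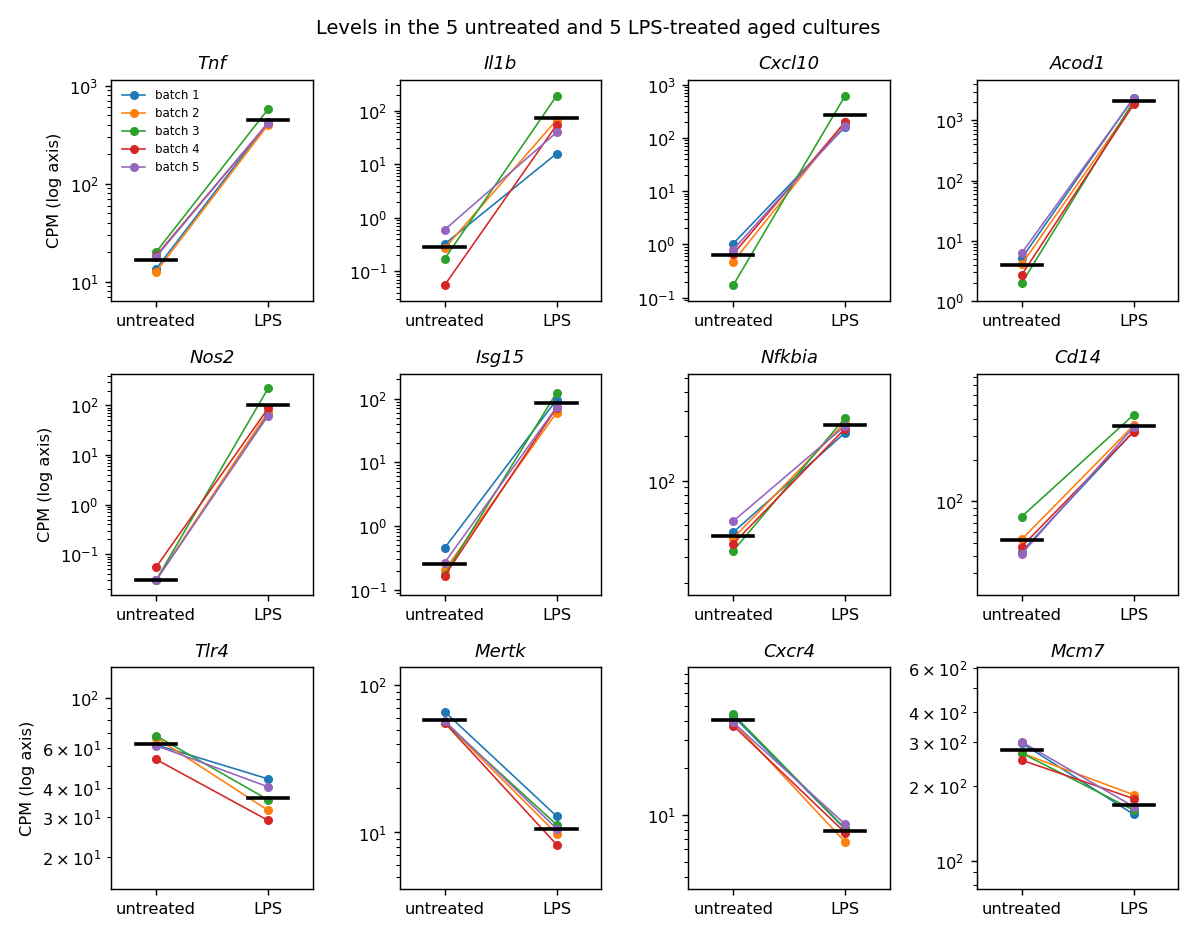
CPM on a log axis of 12 genes in the 5 untreated and 5 LPS-treated aged cultures, each line joining the 2 cultures of a batch, with black bars for the group means and values below 0.03 drawn there. The groups do not overlap for any of the 12, and batch 3 is the highest treated culture for *Tnf*, *Il1b*, *Cxcl10*, *Nos2*, *Isg15*, *Nfkbia* and *Cd14*.

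The receptor of LPS fell while its partners rose. *Tlr4* held 62.0, 66.6, 67.9, 53.5 and 61.5 CPM untreated and 43.9, 32.0, 35.6, 28.8 and 40.5 CPM with LPS (-0.78 ± 0.095, adjusted p = 3.06e-07, edgeR). *Cd14*, the co-receptor that hands LPS to TLR4, rose from 43.0, 52.8, 77.4, 46.8 and 41.4 CPM to 324, 358, 427, 322 and 349 CPM (2.77 ± 0.21), and *Ly96* rose by 0.72. The highest treated culture for *Tlr4* lay below the lowest untreated one, and batch 3 was the highest for *Cd14* with and without LPS. Over the receptor complex, its adaptors and kinases, 12 of 22 tested members rose and 4 fell (median log2 fold change 0.25, 10 and 6 with library sizes). The TRIF adaptor gene *Ticam1* (1.66) and the kinase genes *Irak2* (2.18), *Irak3* (2.77) and *Ikbke* (2.93) rose most, while the bridging adaptor gene *Ticam2* (-0.60), *Tab1* (-0.42) and *Irak4* (-0.33) fell. *Myd88* itself rose by 0.74. Of the other Toll-like receptors, 4 of 8 tested rose and 2 fell: the double-stranded RNA receptor gene *Tlr3* (3.53) and *Tlr2* (2.13), which senses lipoproteins, led the rises, and *Tlr8* fell from a mean of 0.437 CPM to 0 counts, at least 9.85-fold lower. With library sizes 2 of the 8 rose and 3 fell.

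Every one of the 11 NF-κB and IκB genes rose (median log2 fold change 2.00). *Nfkbia*, the inhibitor that NF-κB itself induces, went from 44.4, 40.5, 33.2, 37.1 and 52.9 CPM to 212, 249, 268, 226 and 237 CPM (2.52 ± 0.12). The nuclear IκB gene *Nfkbiz* rose more (3.45 ± 0.091), as did *Relb* (2.72), followed by *Nfkbie* (2.16), *Bcl3* (2.10), *Nfkb1* (2.00) and *Nfkb2* (1.99), with *Rela* (0.76) and *Rel* (0.69) last. Of 19 negative feedback regulators 16 rose and 2 fell (median 2.34), led by the ISG15 protease gene *Usp18* (6.92), *Il1rn*, *Tnip3* (4.35), the A20 gene *Tnfaip3* (3.95), the RNase gene *Zc3h12a* (3.40) and *Socs1* (3.36). The inhibitory receptor gene *Sigirr* (-0.99, not called without batch 3, -0.70) and *Tnfaip8l2* (-0.66) fell. Among 21 MAP kinase and phosphatase genes 12 rose and 4 fell (11 and 8 with library sizes), with *Dusp8* (5.58) and *Dusp1* (2.81) highest and the p38 activator gene *Map2k6* (-1.45) lowest. Of 19 AP-1 and immediate-early genes 12 rose, among them *Ier3* (3.67), *Maff* (3.17) and *Fosl1* (2.61), and 5 fell, among them *Klf4* (-1.49) and *Klf2* (-1.40). *Fos* (0.18) was not called at this time point.

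Cytokine genes of the TNF, IL-6, IL-10 and IL-12 families divided into 6 that were tested and 9 too low to test, and all 6 rose. A gene silent in untreated cultures could be tested only with enough counts under LPS. This share was thus partly fixed by the filter. *Tnf* went from 13.6, 12.7, 20.2, 18.5 and 18.0 CPM to 424, 400.3, 575, 416 and 418 CPM (4.74 ± 0.18, adjusted p = 7.81e-16, edgeR). *Il6* had no count untreated and 3.58, 4.04, 11.7, 3.56 and 2.82 CPM with LPS, at least 139-fold higher, and the lymphotoxin gene *Lta* (at least 71.4-fold) and *Il27* (at least 52.2-fold) also started from 0. *Ebi3*, the partner chain of IL-27, rose by 2.77 and the oncostatin gene *Osm* by 2.05. The median log2 fold change was 6.28, or 5.23 with the 3 genes from 0 at their bounds. *Il10* had 1 count over all treated libraries and *Il12b* had 4.

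In the interleukin-1 family 7 of 12 tested members rose and 2 fell. *Il1b* held 0.323, 0.269, 0.171, 0.0549 and 0.599 CPM untreated and 15.9, 67.6, 191, 54.3 and 39.5 CPM with LPS (8.04 ± 0.92, adjusted p = 1.34e-07, edgeR), and *Il1a* 0.258, 0.403, 0.741, 0.658 and 0.466 CPM and 40.7, 78.7, 214, 85.2 and 61.6 CPM (7.52 ± 0.65). All treated cultures exceeded all untreated ones, but the treated level of *Il1b* was lowest in batch 1 and highest in batch 3. Without batch 3 the log2 fold changes were 7.15 and 7.15. The noncanonical inflammasome caspase gene *Casp4* (3.61) and the sensor gene *Nlrp3* (2.90) rose, *Nlrp1b* (-1.92) and *Aim2* (-0.28) fell, and the pore-forming *Gsdmd* (0.05) was not called. Among colony-stimulating factors and receptors 3 of 7 rose, *Csf3*, *Csf1* (1.11) and *Csf2ra* (0.62), and the receptor gene *Csf1r* (0.06) was not called.

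Chemokine genes rose in 8 of 10 tested CC members (median 4.49) and 3 of 5 tested CXC members. *Ccl3*, a ligand of the receptor CCR1, went from 99.9, 90.5, 107, 99.0 and 120.1 CPM to 2116, 2215, 2704, 2234 and 2307 CPM (4.49 ± 0.11) and lay close together in the treated cultures. *Ccl5* (8.11), *Ccl12* (91.0 times the untreated level, 16.7 to 3836 by counting error), *Ccl7* (5.05), the monocyte chemoattractant gene *Ccl2* (4.49), and *Ccl9* (1.86) rose too, and *Ccl24* fell (-1.48). *Cxcl10* held 1.03, 0.471, 0.171, 0.658 and 0.798 CPM untreated and 161, 203, 617, 198 and 170.2 CPM with LPS (8.75 ± 0.61), highest in batch 3 (without batch 3 7.92). *Cxcl16* rose by 2.63 and *Cxcl14* fell by 0.94 on the log2 scale. The related chemokine genes *Cxcl1*, *Cxcl9* and *Cxcl3* had 1, 14 and 10 counts over the 5 treated libraries.

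Enzymes of small mediators moved unevenly: 7 of 14 tested rose and 4 fell. Beside *Nos2* and *Acod1*, the inducible cyclooxygenase gene *Ptgs2* went from 5.23, 7.80, 7.98, 6.20 and 7.05 CPM to 179.7, 223, 297, 199 and 218 CPM (5.02 ± 0.18), and *Gch1* (3.48), which makes the cofactor of nitric oxide synthase, and the prostaglandin E synthase gene *Ptges* (3.17) rose. The constitutive cyclooxygenase gene *Ptgs1* (-1.91), *Alox5ap* of leukotriene synthesis (-0.69) and *Ptges2* (-0.25) were among the falls.

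Every tested member of both lists of interferon-stimulated effector genes rose. All 28 tested antiviral effectors rose (median 6.77, or 6.46 with 3 members from 0 counts at their bounds), with *Rsad2* (9.72) the highest of those with counts in untreated cultures. *Mx1* went from 0 counts to 8.44 ± 7.14 CPM, at least 228-fold, and *Ifit3b* from 0 counts to 8.05 ± 5.65 CPM, at least 218-fold. *Isg15*, a ubiquitin-like modifier, went from 0.452, 0.202, 0.171, 0.165 and 0.266 CPM to 95.6, 60.4, 124, 71.9 and 73.5 CPM (8.38 ± 0.34). All 12 tested guanylate-binding proteins and immunity-related GTPases, which attack the vacuoles of intracellular microbes, rose (median 6.29, or 5.36 with 3 members at their bounds), from *Irgm2* (3.37) to *Gbp7* (8.30) and *Gbp2* (9.60). Against this, 27.5% of all tested genes rose. The filter admitted a gene silent in untreated cultures only if LPS-treated cultures held enough counts. The shares of both lists were thus partly fixed by the filter, which kept 28 of 30 and 12 of 21 listed members. Among those left out, *Gbp2b* and *Gbp9* each held 0 counts untreated and 4 with LPS. The interferon-β gene *Ifnb1* itself had 10 counts over the 5 treated libraries and none over the untreated ones, too few to test.

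The factors upstream of these genes rose unevenly, with 11 of 20 interferon regulatory factor, receptor and STAT genes higher and 5 lower. *Irf7* went from 0.711, 0.739, 0.342, 0.549 and 0.998 CPM to 87.4, 67.0, 158, 80.4 and 71.5 CPM (7.13 ± 0.36). *Stat2* (2.21 ± 0.22) and *Irf9* (9.09 ± 1.77 to 55.2 ± 4.23 CPM), whose products act together downstream of the interferon receptor, rose, whereas *Irf3* (-0.04) and the receptor chain gene *Ifnar2* (0.13) were not called, *Ifnar1* rose by 0.36 and *Stat5a* (-0.78) and *Ifngr1* (-0.47) fell. Sensors of cytosolic nucleic acid rose in 11 of 14 cases, among them the RIG-I gene *Ddx58* (6.34) and, from 0 counts, *Ifi205* (at least 123-fold) and the MDA5 gene *Ifih1* (at least 11.3-fold), and the adaptor genes *Mavs* (-0.48) and *Tmem173*, encoding STING (-0.36), fell.

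Many of these genes are neighbours. On GRCm38 (GENCODE annotation), 11 runs of at least 4 adjacent tested genes, 59 genes in all, rose 2-fold or more throughout. The longest held 10 genes of and beside the Ifi200 family at chr1:173468485-174044411, with log2 fold changes, genes at 0 counts untreated being set at their bounds, from 2.73 to 7.69. Others were the Ifit genes at chr19:34550694-34650009 (6 genes, 4.19 to 8.41), the Oas genes at chr5:120730333-120907521 (6 genes), the Schlafen genes at chr11:82951349-83070678 (6 genes) and the guanylate-binding protein genes at chr3:142493978-142638008 (5 genes, 7.01 to 9.60). Members of these families resemble each other closely, and reads shared between copies may have been split or dropped by the counting.

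The promoters of strongly induced genes are printed for the letters that interferon and NF-κB factors are known to bind. Shown are the 250 bases before the RefSeq start (GRCm38.p6), 5′ to 3′ on the strand of the gene, in lower case, with capitals for matches on either strand to the ISRE core or the κB consensus. *Rsad2* (chr12:26456453-26456702, minus strand), *Ifit3b* (chr19:34607707-34607956, plus) and *Gbp2* (chr3:142620413-142620662, plus) are shown for ISRE matches, *Cxcl10* (chr5:92348890-92349139, minus) and *Gbp5* (chr3:142496684-142496933, plus) for both motifs, *Nfkbia* (chr12:55492648-55492897, minus) for a κB match alone, and *Acod1* (chr14:103046762-103047011, plus) as one of the largest rises with neither.
Rsad2: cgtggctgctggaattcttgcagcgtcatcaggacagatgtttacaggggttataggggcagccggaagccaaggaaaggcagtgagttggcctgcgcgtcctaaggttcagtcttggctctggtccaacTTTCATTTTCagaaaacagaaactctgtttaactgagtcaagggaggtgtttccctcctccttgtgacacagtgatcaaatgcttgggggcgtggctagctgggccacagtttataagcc
Ifit3b: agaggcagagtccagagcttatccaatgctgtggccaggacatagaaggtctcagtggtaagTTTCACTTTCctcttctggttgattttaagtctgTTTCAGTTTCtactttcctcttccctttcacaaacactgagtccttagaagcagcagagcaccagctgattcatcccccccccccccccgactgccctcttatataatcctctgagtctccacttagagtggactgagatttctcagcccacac
Gbp2: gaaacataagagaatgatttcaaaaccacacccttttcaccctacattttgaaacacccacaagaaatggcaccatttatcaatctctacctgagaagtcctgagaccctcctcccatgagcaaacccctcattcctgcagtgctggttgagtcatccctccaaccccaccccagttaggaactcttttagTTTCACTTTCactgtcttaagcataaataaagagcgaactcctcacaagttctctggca
Cxcl10: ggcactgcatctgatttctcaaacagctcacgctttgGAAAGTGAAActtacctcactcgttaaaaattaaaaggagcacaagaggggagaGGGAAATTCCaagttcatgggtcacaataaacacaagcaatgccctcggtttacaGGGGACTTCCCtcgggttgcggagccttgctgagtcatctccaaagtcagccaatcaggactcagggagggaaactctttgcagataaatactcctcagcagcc
Gbp5: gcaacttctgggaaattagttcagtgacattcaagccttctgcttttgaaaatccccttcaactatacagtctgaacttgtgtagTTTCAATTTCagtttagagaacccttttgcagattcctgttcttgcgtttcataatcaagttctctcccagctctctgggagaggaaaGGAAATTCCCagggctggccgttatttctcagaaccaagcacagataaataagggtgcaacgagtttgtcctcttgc
Nfkbia: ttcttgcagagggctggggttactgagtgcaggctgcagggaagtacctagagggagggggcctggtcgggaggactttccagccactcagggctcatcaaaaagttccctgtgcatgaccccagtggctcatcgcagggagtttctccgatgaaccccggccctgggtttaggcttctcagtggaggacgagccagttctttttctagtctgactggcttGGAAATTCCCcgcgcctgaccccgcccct
Acod1: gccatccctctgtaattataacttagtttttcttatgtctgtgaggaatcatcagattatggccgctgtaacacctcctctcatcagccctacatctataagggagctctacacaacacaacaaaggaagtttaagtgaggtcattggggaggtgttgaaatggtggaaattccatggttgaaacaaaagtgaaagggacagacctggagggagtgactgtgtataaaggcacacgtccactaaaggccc

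*Cxcl10* held 1 ISRE core and 3 κB matches, the last 2 of which share 9 bases, and *Ifit3b* held 2 ISRE cores. Of promoters examined but not printed, that of the antiviral effector gene *Cmpk2* held 0 ISRE cores. Those of *Lbh*, *Gpr157* and *St6gal1*, among the largest falls, held 0 κB matches. RefSeq windows of 250 bases before and 50 after a start were searched, and a gene can have more than 1. An ISRE core was present in 3.44% of all 32851 windows and in 3.25% of the 11528 windows of tested genes. Among genes that rose at least 8-fold the share was 25.0% of 208 windows. It was 46.2% of the 26 windows of antiviral effectors and 81.8% of the 11 windows of guanylate-binding proteins and related GTPases. The κB consensus was present in 8.46% of all windows, 10.3% of windows of tested genes and 17.8% of those of genes up at least 8-fold. For NF-κB and IκB genes it was present in 66.7% of 12 windows. Among genes down at least 2-fold the shares were 2.21% and 10.3%. These are descriptions of letters with no test, and only 9040 of the 12799 tested genes had a window.

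Batches differed in the size of the response. Among called genes averaging 3 log2 CPM or more, the within-batch log2 difference varied most for *Cxcl10*, *Rsad2*, *Irf7*, *Ifi203*, *Themis2* and *Stat2*, and batch 3 was the highest of 5 in all 6. *Stat2* went from 13.4, 10.5, 9.58, 11.0 and 12.7 CPM to 54.4, 32.2, 93.6, 40.0 and 42.8 CPM, a rise of 3.27 in batch 3 and of 1.61 to 2.01 in the others. *Themis2*, an adaptor of myeloid signalling, held 26.7, 19.8, 18.0, 20.9 and 22.7 CPM and 30.2, 22.4, 63.3, 26.8 and 27.8 CPM, a difference of 1.81 in batch 3 and of 0.17 to 0.35 elsewhere, and its call was lost without batch 3 (0.24, adjusted p = 0.261, edgeR) and with library sizes (0.50). The antiviral list had a median within-batch difference of 5.57 in batch 3 and of 3.83 to 4.36 in the others, and without batch 3 all 28 of its members stayed called higher (median 6.06).

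Antigen presentation by MHC class I rose in 19 of 22 tested genes and fell in none (median 0.97), led by *H2-T24* (5.49), *H2-Q4* (2.80), the peptide transporter gene *Tap1* (1.98) and *Tapbp* (1.76), with *B2m* at 0.82. Copies of class I genes are near-identical, so single members are uncertain. Of 13 costimulatory and checkpoint genes 9 rose, *Cd40* most, then *Lgals9* (2.96) and the PD-L1 gene *Cd274* (2.61), while *Cd86* (-1.52) and *Vsir* (-1.56) fell. Extracellular proteases and their inhibitors rose in 12 of 15 cases (median 2.03), from *Mmp13* (54.7 times the untreated level, 14.7 to 457 by counting error) and the antiprotease gene *Slpi* (3.84) to *Plau* (0.86), with only *Timp2* lower (-1.04). Of 17 adhesion and migration genes 10 rose, led by *Ccrl2* (6.49), *Itga5* (2.72) and *Icam1* (2.40), and 4 fell. *Cxcr4*, the receptor of CXCL12, was the lowest, from 42.8, 39.1, 44.0, 37.2 and 39.0 CPM to 8.07, 6.67, 8.13, 7.66 and 8.67 CPM.

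Several transcripts of the resting microglial state fell. Of 19 tested homeostatic genes 9 fell and 3 rose (median -0.32, 26.9% of all tested genes fell, 11 falls and 1 rise with library sizes). *Mertk* went from 66.1, 56.5, 55.9, 55.6 and 57.3 CPM to 12.9, 9.80, 11.3, 8.28 and 10.6 CPM (-2.46 ± 0.10, adjusted p = 6.46e-15, edgeR), and *Tmem119* (-2.37) and the ADP receptor gene *P2ry13* (-2.05) fell similarly. *P2ry12* (-3.34) fell too, at 0.904, 1.21, 0.969, 0.494 and 0.599 CPM untreated and 0.0702, 0.0824, 0.0689, 0 and 0.145 CPM with LPS, levels close to the floor. The transcription factor gene *Mef2c* (-1.57) fell, and *Csf1r* and *Tgfbr1* (-0.04) were not called. Among 24 genes of disease-associated microglia 7 rose and 6 fell (5 and 10 with library sizes), shares of 29.2% and 25.0% beside 27.5% and 26.9% of all tested genes, in opposite directions for the receptors *Axl* (3.06) and *Trem2* (-0.67), *Lilrb4a* (2.78) and *Clec7a* (-1.33).

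Receptors and complement genes divided likewise, with 13 of 30 higher and 9 lower. Complement factor B (*Cfb*, 215 times the untreated level, 75.8 to 1083 by counting error), the scavenger receptor gene *Marco* (6.08) and the Mincle gene *Clec4e* (4.56) rose most, and *Mertk*, the decoy receptor gene *C5ar2* (-2.16) and the complement gene *C1qa* (-1.26) fell most. With library sizes 12 rose and 10 fell. Of 11 purinergic and adenosine genes 5 rose, with the adenosine receptor gene *Adora2a* (46.9 times the untreated level, 16.7 to 246 by counting error) and the NAD hydrolase gene *Cd38* (2.85) highest, and 4 fell, among them *P2ry1* (-1.70) and the ATP hydrolase gene *Entpd1* (-1.29). Myeloid transcription factors showed 9 rises of 18, led by *Cebpd* (2.81), *Tfec* (1.71) and *Cebpb* (1.24), with *Spi1* at 1.14, and 7 falls, led by *Klf4*, *Cebpa* (-1.30) and the lysosome regulator gene *Tfeb* (-1.26), against 7 and 7 with library sizes. In TGF-β signalling 4 of 16 rose, *Id2* (0.78) most, and 6 fell, *Id1* (-1.24) and *Smad3* (-0.76) most (3 and 9 with library sizes). These shares were 25.0% and 37.5%, beside 27.5% and 26.9% of all tested genes.

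**Figure D3:**
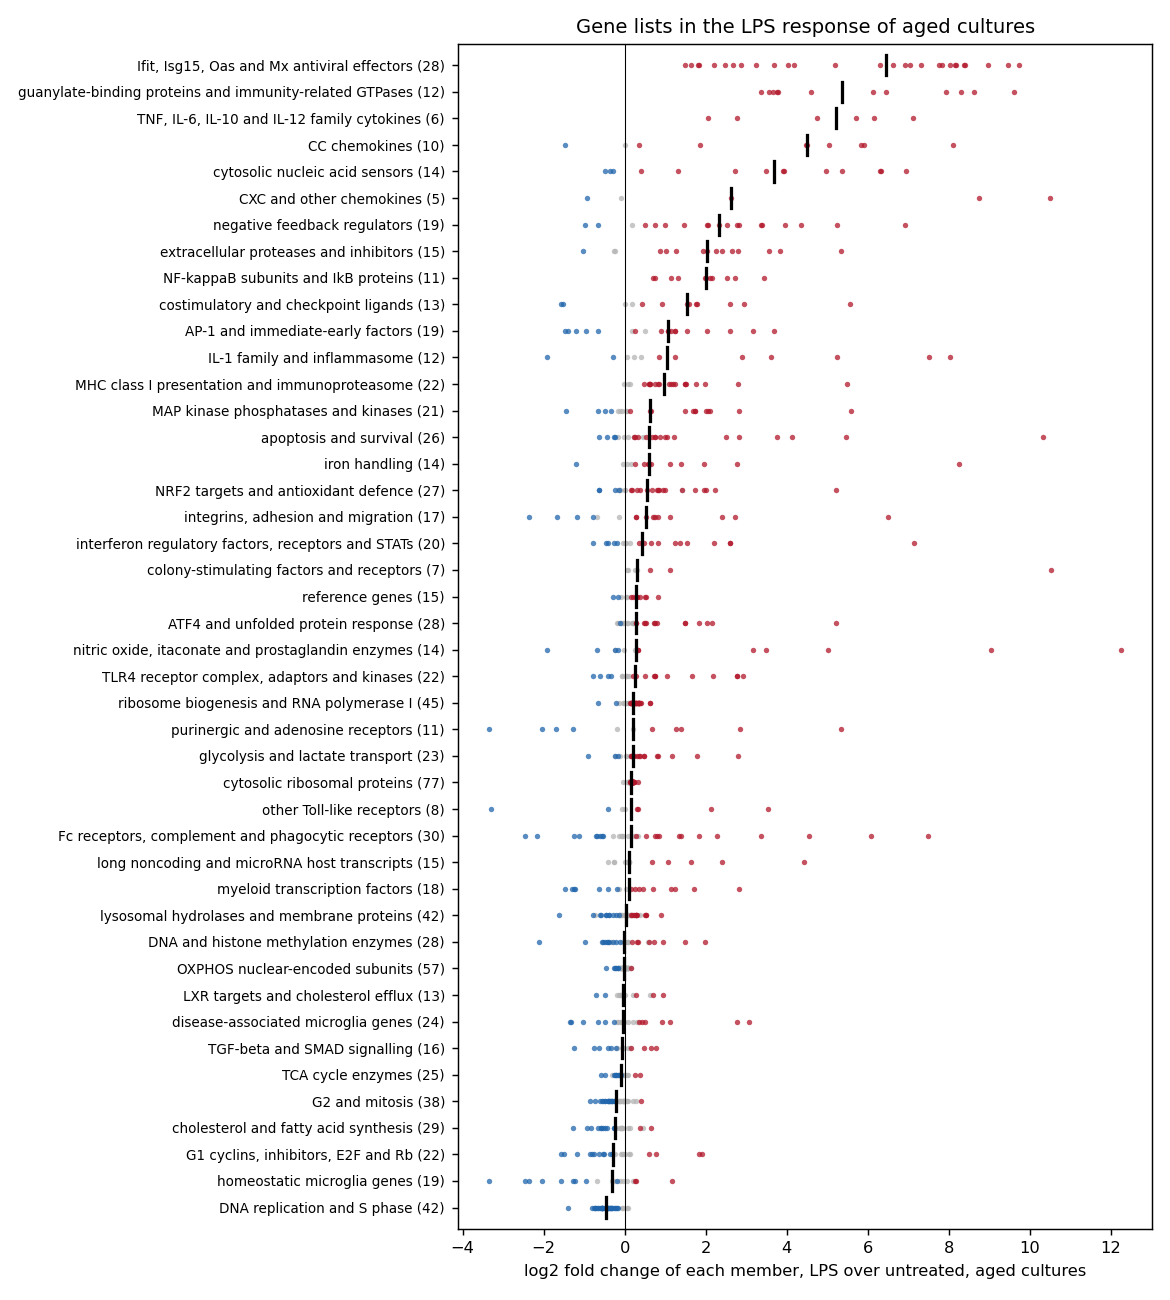
Log2 fold change with LPS in aged cultures of every tested member of 44 gene lists, 1 row per list with its number of tested members, called rises in red, called falls in blue, uncalled members in grey and the median as a black bar. Members at 0 counts in a whole group are drawn at their bounds. The median drawn is 6.46 for the antiviral effectors at the top and -0.45 for DNA replication genes at the bottom.

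DNA replication genes fell almost throughout. Of 42 genes 38 fell and none rose (median -0.45). *Mcm7*, a subunit of the replicative helicase chosen after its values were seen, went from 298, 272, 272, 254 and 302 CPM to 154, 184, 159.8, 178 and 165 CPM (-0.73 ± 0.061, adjusted p = 8.07e-10, edgeR). The thymidine kinase gene *Tk1* fell most, from 59.9, 55.9, 68.9, 54.5 and 64.0 CPM to 17.6, 25.0, 27.3, 25.2 and 20.3 CPM (-1.39 ± 0.098), followed by the polymerase subunit gene *Pole2* (-0.81) and the clamp loader gene *Rfc1* (-0.75). The groups did not overlap for either of the genes given in full, although *Tk1* and *Mcm7* overlap other annotated genes. The members not called were *Orc1* (0.09), *Mcm10* (0.07), *Gins3* (-0.04) and *Orc6* (-0.07).

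The fall of the replication genes was smaller in aged than in young cultures. In young cultures 41 of the 42 fell (median -0.93), and the difference between the responses was called for 30 of the 42, all with the smaller fall or no fall in aged cells, against 4.12% of all tested genes with a difference in that direction. *Mcm7* fell by 1.34 on the log2 scale in young cultures, from 298 ± 16.8 to 117 ± 8.25 CPM, and from 279 ± 19.9 to 168 ± 12.7 CPM in aged ones (difference 0.61 ± 0.086, adjusted p = 0.000224, edgeR). The licensing factor gene *Cdc6* (difference 1.05), the ubiquitin ligase gene *Uhrf1* (1.02) and the ribonucleotide reductase gene *Rrm2* (0.89), named for the largest differences, fell by 0.41, 0.66 and 0.61 in aged cultures. *Tk1* ended at 23.1 ± 3.99 CPM in aged and 20.1 ± 2.15 CPM in young cultures, from 60.7 ± 5.92 and 74.1 ± 4.73 CPM (difference 0.49, adjusted p = 0.0346, edgeR). The maintenance DNA methyltransferase gene *Dnmt1* fell less too (459.9 ± 7.57 to 313 ± 17.2 CPM aged, 510.5 ± 13.3 to 222 ± 28.7 CPM young, difference 0.65, adjusted p = 0.000162, edgeR). Of the 30 differences, 13 were still called without batch 2, and 29, 22, 16 and 20 without batches 1, 3, 4 and 5. Those of *Mcm7*, *Cdc6*, *Uhrf1*, *Rrm2* and *Dnmt1* were called each time, and that of *Tk1* was lost without batch 2 (0.43), 3 (0.46), 4 (0.41) or 5 (0.55).

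**Figure D4:**
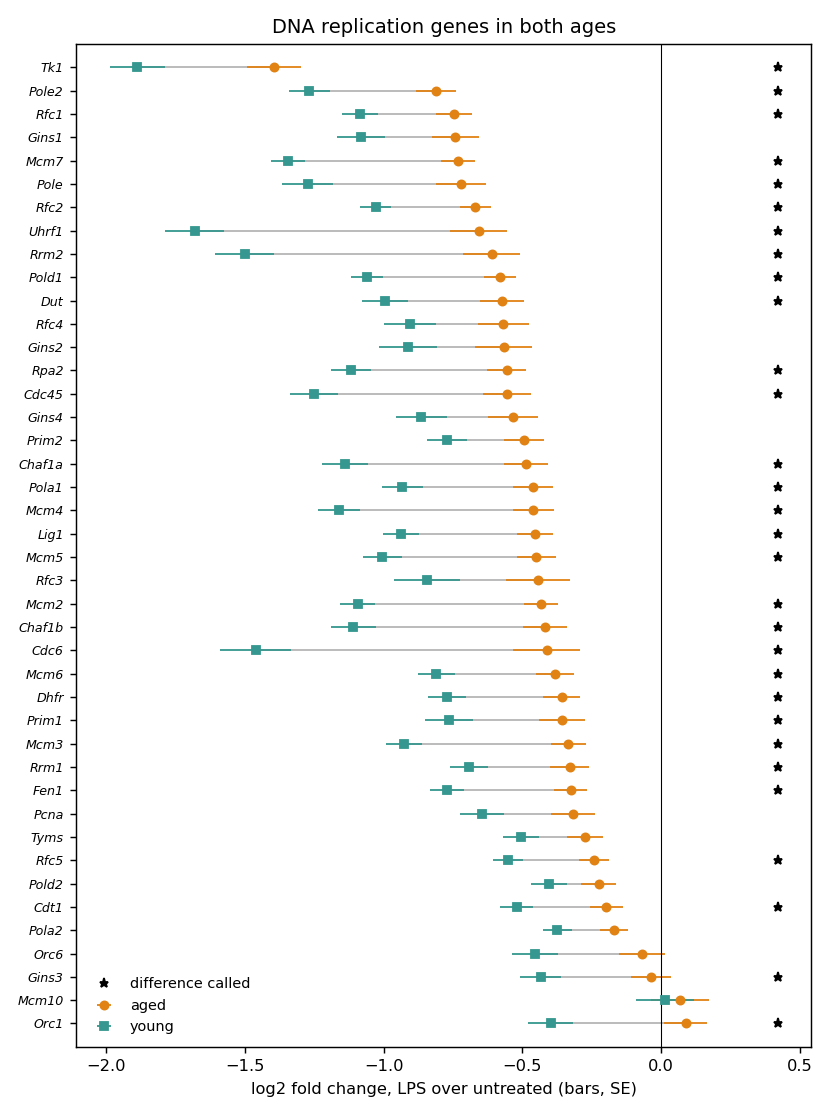
Log2 fold change with LPS (± SE, 5 cultures per group) of the 42 DNA replication genes in aged (orange circles) and young (teal squares) cultures, with a star where the difference between the ages was called. Aged points lie to the right of the young ones for all 42 genes, and 30 carry a star.

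Other genes of the division cycle moved less uniformly. Of 38 genes of G2 and mitosis 17 fell and 1, *Pttg1* (0.41), rose, with *Ncapd2* (-0.87) and *Cenpf* (-0.73) lowest and *Cdk1* (-0.18), *Plk1* (-0.12) and *Top2a* (-0.03) not called, and no difference between ages was called in this list by edgeR or DESeq2 (8 at an unadjusted p below 0.05, and by edgeR 6 without batch 1, 1 without batch 3, 1 with the batch as a block and 2 with library sizes). Among 22 G1 regulators 11 fell and 4 rose. The CDK inhibitor genes *Cdkn2b* (1.90) and *Cdkn1a* rose, the latter from 19.2, 19.0, 21.4, 18.8 and 19.8 CPM to 72.1, 57.1, 89.0, 62.0 and 68.1 CPM (1.83 ± 0.15), and *Cdkn2c* (-1.56) and the pocket protein genes *Rbl2* (-1.49) and *Rb1* (-1.19) fell. Of the activating E2F genes, *E2f1* (-0.32) and *E2f2* (-0.77) fell and *E2f3* (-0.08) was not called. E2F letters (TTTGGCGC or TTTCCCGC, either strand) stood in 27.5% of the 40 promoter windows of replication genes and in 3.04% of windows of tested genes, and the CCAAT box in 79.4% of the 34 windows of G2 and mitosis genes against 38.1%. The 250 bases before the starts of *Tk1*, *Pole2* and *Rfc1*, the replication genes named for the largest falls, held 0 E2F matches.

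Metabolic lists shifted by small amounts around a few large changes. Of 23 glycolysis genes 15 rose and 3 fell (median 0.20, 9 and 6 with library sizes), led by the glucose transporter genes *Slc2a6* (2.79) and *Slc2a1* (1.79) and by *Hk3* (1.18), and *Slc16a3*, which exports lactate, rose by 0.47. The falls numbered 1 without batch 3 or 4. Genes of the TCA cycle and of enzymes linked to it fell in 9 of 25 cases and rose in 2 (21 and 2 with library sizes). The largest falls were in linked enzymes, the pyruvate dehydrogenase kinase gene *Pdk1* (-0.57) and the cytosolic malate dehydrogenase gene *Mdh1* (-0.48). Respiratory chain subunits fell in 6 of 57 cases and rose in 1, against 11 and 3 with the batch as a block, 34 and 0 with library sizes, and no rise without batch 1, 2, 3 or 4. Sterol and fatty acid synthesis genes fell in 11 of 29 cases and rose in 2, with *Scd2* (-1.27) lowest (17 falls and 1 rise with library sizes, 1 rise without batch 1, 2, 4 or 5). LXR targets rose in 3 of 13 cases, *Abca1* (0.95) most, and fell in 2, or in 1 without batch 2 (2 and 6 with library sizes). The 3 rises and 2 falls were 23.1% and 15.4%, beside 27.5% and 26.9% of all tested genes.

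More stress and redox genes rose than fell. *Slc7a11*, which imports cystine for glutathione, went from 14.9, 16.3, 9.47, 12.6 and 16.4 CPM to 744, 540.3, 219, 514 and 554 CPM (5.22 ± 0.35), with batch 3 the lowest in this case. Of 27 NRF2 targets and antioxidant genes 17 rose and 4 fell (13 and 9 with library sizes), among the rises *Srxn1* (2.24), the mitochondrial superoxide dismutase gene *Sod2* (2.00) and *Hmox1* (1.95), and *Mt2* (-0.63) and *Gclc* (-0.62) were the largest falls (2 falls without batch 2). Of 28 ATF4 and unfolded protein response genes 14 rose (11 with library sizes), led after *Slc7a11* by *Trib3* (2.16) and *Chac1* (2.02), and 1, *Atf6* (-0.12), fell, a call lost without batch 2, 3, 4 or 5 (-0.12 to -0.10). Iron genes rose in 10 of 14 cases and fell in 1 (8 and 2 with library sizes). *Fth1* went from 4180.1, 4656, 5629.9, 4669 and 4737 CPM to 10339, 10171, 10091, 10384 and 10647 CPM (1.11 ± 0.077), the siderophore-binding lipocalin gene *Lcn2* from 0 counts to 11.3 ± 2.76 CPM, at least 305-fold, and *Slc11a2* rose by 2.77.

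Genes of apoptosis and survival, listed together, rose in 17 of 26 cases and fell in 4 (14 and 6 with library sizes). *Traf1*, the death receptor gene *Fas* (5.47) and *Bcl2a1d* (4.12), which has near-identical copies, rose most. Lysosomal genes were higher in 11 of 42 cases and lower in 11, 26.2% each, near the shares over all tested genes (4 and 13 with library sizes), with *Atp6v1h* (0.89) and the sulfamidase gene *Sgsh* (-1.62) at the ends. Of 28 genes listed for DNA and histone modification 8 rose and 11 fell, 28.6% and 39.3% beside 27.5% and 26.9% of all tested genes. The transcription factor gene *Prdm1* (1.99) and *Tet2* (1.49) rose most, and the histone deacetylase gene *Hdac9* (-2.12) fell most. Noncoding transcripts rose in 5 of 15 cases (33.3%, beside 27.5% of all tested genes), the host transcript of miR-155, *Mir155hg* (4.42), most, then *Ptgs2os2* (2.39). None fell by edgeR or DESeq2 (1 at an unadjusted p below 0.05, and by edgeR 1 without batch 4, 1 with the batch as a block and 2 with library sizes).

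Small shifts of whole machineries depended on scale. Of 77 cytosolic ribosomal protein genes 40 rose and none fell (median 0.16, 62 rises with the batch as a block and 19, 16 or 26 without batch 2, 3 or 4), but with library sizes in place of TMM 1 rose and 1 fell (median -0.000365). Of 45 ribosome biogenesis genes 32 rose and 2 fell, against 16 and 7 with library sizes, and *Rrp9* (0.62) and *Rrs1* (0.62) rose most while *Ubtf* fell (-0.67). Genes often used as references were not flat. Of 15, 9 rose and 2 fell (6 and 3 with library sizes), with *Actb* at 0.50 (3803 ± 247 to 5395 ± 600.1 CPM), *Gapdh* at 0.30 (0.14 and not called with library sizes), and *Hprt* not called at 0.02. Without batch 1, 2, 4 or 5, and with the batch as a block, the falls among the 15 numbered 1.

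Where the aged response differed from the young one, it was mostly the smaller of both. The interaction of age and LPS was called for 818 genes (6.39%), 527 with a higher log2 fold change in aged cells (4.12%) and 291 with a lower one (2.27%). Of the 818, 459 fell in both ages and less in aged cells, 257 rose in both and less in aged cells, and 8 rose and 1 fell more in aged cells. A further 79 were called in young cells alone, 7 in aged cells alone and 7 in opposite directions. Leaving out batches 1 to 5 in turn gave 696, 189, 662, 532 and 410 calls, so the count rests most on batch 2, then on 5 and 4. In the young response itself 3989 genes rose (31.2%) and 4282 fell (33.5%), 64.6% in all.

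*Ifit2*, an antiviral effector gene, rose from 9.68 ± 0.445 to 177 ± 89.7 CPM in aged and from 14.2 ± 2.64 to 637 ± 138 CPM in young cultures (difference -1.30 ± 0.34, adjusted p = 0.0246, edgeR). *Stat2* went to 52.6 ± 24.3 CPM in aged and 133 ± 24.9 CPM in young cultures from like untreated levels (11.4 ± 1.57 and 12.3 ± 1.23 CPM, difference -1.23). *Ccl9* (-1.72), the protein C receptor gene *Procr* (-1.27), *Cd274* (-1.17) and the granzyme inhibitor gene *Serpinb9* (-1.15) were the other 4 of the 6 largest. From the lists, *Irf1* (-0.85), *Myd88* (-0.38), *Tbk1* (-0.28), *Nfkbib* (-0.49), *Zfp36* (-0.72), *Casp1* (-0.50), *Il18* (-1.20) and *Cdkn1a* (-0.83) rose less in aged cells, and *Irf5* (-0.45) and *Gsdmd* (-0.51) were called higher with LPS in young cells alone. In the MHC class I list 5 of 22 differences were called, all lower in aged cells, but 3, 0, 9, 3 and 2 without batches 1 to 5 and 10 with the batch as a block or by DESeq2. Of the 16 genes named here for a smaller rise or a rise in young cells alone, *Casp1* and *Serpinb9* kept a called difference whichever batch was left out. The other 14 lost the call without batch 2 (differences from -1.72 to -0.27), 13 of them, all but *Procr*, without batch 1, 11 without batch 5, *Ifit2*, *Cd274*, *Il18* and *Procr* without batch 4, and *Procr* without batch 3.

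For *Acod1*, *Saa3*, *Traf1* and *Csf3*, which had larger fold changes in aged cells, the untreated mean was lower in aged than in young cultures and so was the treated mean. *Acod1* stood at 4.07 ± 1.76 CPM untreated in aged and 41.9 ± 44.2 CPM in young cultures, and with LPS at 2105 ± 235 and 3549.6 ± 258 CPM (difference of the log2 fold changes 2.63 ± 0.57, adjusted p = 0.00669, edgeR). *Saa3* (1.81 ± 0.684 to 402 ± 59.1 CPM aged, 8.76 ± 7.21 to 605 ± 137 CPM young, difference 1.67) and *Traf1* (0.0604 ± 0.0700 to 90.2 ± 13.2 CPM aged, 1.99 ± 2.11 to 158 ± 37.1 CPM young) had the same order of means, and so did *Csf3*, from 0 counts aged and 0.890 ± 0.524 CPM young to 54.3 ± 12.6 and 82.6 ± 12.0 CPM. The difference of *Saa3* was not called without batch 2, 3, 4 or 5 (1.65 to 1.90), nor that of *Traf1* without batch 2 or 5 (4.00 and 4.18). Of the fits with a batch left out, the one without batch 1 gave the smallest differences for all 4 genes. They were then 1.74 for *Acod1*, 1.24 for *Saa3*, 3.25 for *Traf1* and 5.86 for *Csf3*, each still called. The treated levels of the ages were not compared by a test here. Of the falls, *Cxcr4* ended at 7.84 ± 0.745 CPM in aged and 3.14 ± 0.598 CPM in young cultures (difference 1.60, adjusted p = 6.46e-05, edgeR), and *Rgs7bp* (1.42, not called without batch 2, 1.34) and *Tcf19* (1.15) were next. The differences of *Acod1*, *Cxcr4* and *Tcf19* were called without any 1 of the batches. The 7 genes called in opposite directions changed little: *Hsd17b11*, *Spire2*, *Gramd1a* and *Slc12a9* fell in aged and rose in young cells, and *Slc27a4*, *Snx30* and *Dhrs3* rose in aged and fell in young cells, with aged log2 fold changes between -0.22 and 0.44. Leaving out single batches ended the aged call of 6 of them at least once (then -0.26 to 0.28), *Dhrs3* being the exception, and with library sizes *Slc27a4* stood at -0.0042.

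**Figure D5:**
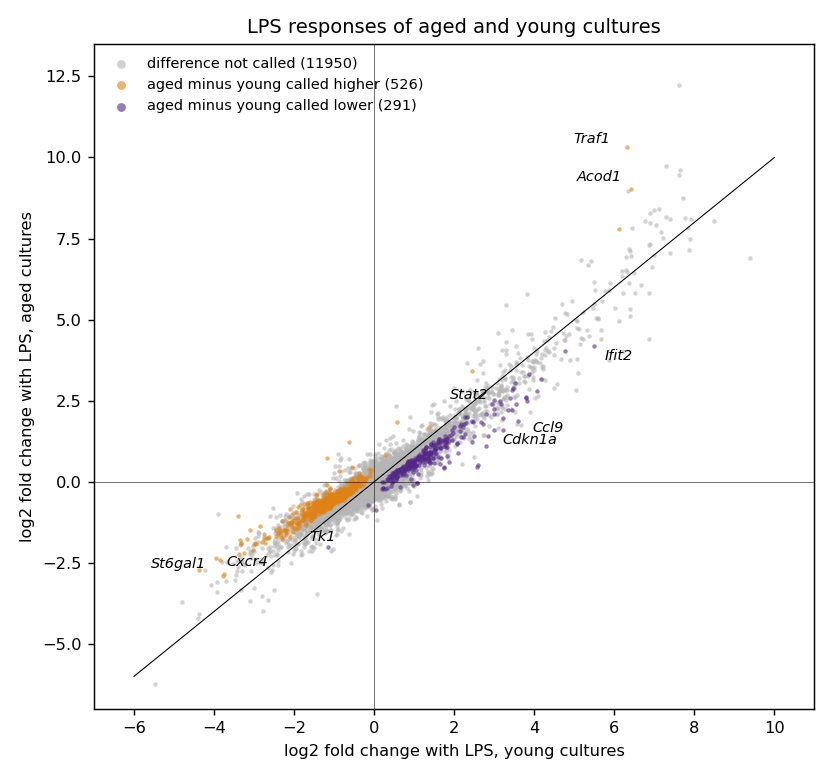
Log2 fold changes with LPS of 12767 genes in aged (vertical axis) and young (horizontal axis) cultures, 1 point per gene, with called differences in orange (higher in aged) and purple (lower in aged) and the line of equal change. The 32 genes at 0 counts in every library of any group are left out. Most coloured points lie between the line and the horizontal axis, the smaller change being in aged cells.

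Of 3 measures per library, 1 passed the threshold between the aged groups in a test that leaves the pairing by batch unused. The 100 most abundant genes took 15.5% ± 0.332 of counts untreated and 16.6% ± 0.319 with LPS (mean ± SD, n = 5, higher in 5 of 5 batches, exact permutation p = 0.00794, the smallest that 5 against 5 allows, adjusted p = 0.0238 over the 3 measures). Mitochondrially encoded genes took 0.976% ± 0.229 untreated and 0.727% ± 0.127 with LPS (lower in 5 of 5 batches, exact permutation p = 0.0635, adjusted p = 0.0952), and 14250.4 ± 279 and 14068 ± 155 genes had more than 3 counts (exact permutation p = 0.278). With the pairing, an exact sign-flip of within-batch differences gave both shares the same p of 0.0625, the smallest it allows (adjusted p = 0.0938).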

How the data were processed

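RNA-seq of BV-2 cells covered 4 groups of 5 cultures, young and aged, untreated and LPS-treated, of which the aged ones are described. The authors prepared stranded mRNA libraries, sequenced them paired-end, aligned with STAR 2.6.1d to GRCm38, counted reads per gene with featureCounts 1.5.1 and deposited raw counts; strand and multimapping settings are not given in the sources used here. Genes were named with GENCODE annotation. Counts of all 20 libraries were fitted with edgeR 4.0.16 (limma 3.58.1, R 4.3.3) by its quasi-likelihood F-test with TMM factors and 1 mean per group, after filterByExpr kept 12799 genes, and p-values were adjusted by Benjamini-Hochberg over all of them and called below 0.05. Fold changes carry SE = log2 fold change divided by the square root of F. CPM used TMM-scaled library sizes and TPM exon-union lengths. The step was tested on simulated data with few changed genes, balanced in direction, in aged LPS-treated libraries only and without batch effects. The TMM scale under a response as broad as the real one was thus not tested. Floors of 3 counts and intervals cover counting error only.

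The labels give the replicate number as a batch. Deviations from the group means correlated between aged untreated and aged LPS-treated cultures of the same number (mean r = 0.260, 0.182 to 0.394, 5 of 5 best with their own number), so the numbers pair the aged samples. Between ages the mean r was 0.042 for LPS-treated (-0.214 to 0.275) and 0.111 for untreated cultures, each with 2 of 5 best. The batch entered as a block in an alternative fit, with 1 term per batch shared by both ages. Other alternatives were DESeq2 1.42.0, its size factors, library sizes alone, no filter, 10 counts in every library, the aged libraries alone, each batch left out, a stricter p of 0.01 and a 2-fold minimum, and, added after seeing the data, the aged libraries alone with the block. Library measures were compared by exact two-sided permutation tests.

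The groups and the 44 gene lists were chosen with earlier results of these data known. Genes named are the 12 largest rises and falls averaging 3 log2 CPM or more without overlap of the groups, up to 3 called rises and falls per list with further members of lists of up to 24 genes (the rule takes all of these, but the text names a part and counts the rest), the 8 highest by TPM among 2-fold changes, the 8 most abundant that came from or fell to at most 3 counts per library, the 6 largest differences between ages in each direction, those of opposite sign (up to 4 each way), the 6 most variable between batches and cell type markers. *Isg15*, *Mcm7*, *Cdc6*, *Uhrf1*, *Rrm2* and *Dnmt1* were named after their values were seen. Promoters are RefSeq windows (GRCm38.p6) matched by symbol.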

Additional observations from a re-analysis of the deposited data

Results flagged for a closer look

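The aged LPS-treated culture of batch 3 lay far above the other 4 treated cultures, by Dixon's 95% limit for 5 samples, for *Cxcl10* (617 CPM), *Il1a* (214 CPM), *Il6* (11.7 CPM), *Irf7* (158 CPM), *Nos2* (219.9 CPM), *Themis2* (63.3 CPM) and *Tnf* (575 CPM). In untreated cultures batch 1 stood apart for *Mertk* (66.1 CPM) and batch 4 for *Nos2* (0.0549 CPM, its only count). A single count among libraries at 0 exceeds this limit by construction. These are 9 of 66 groups of 5 values examined, 7 of them batch 3 with LPS. The groups share libraries and include genes named for varying most between batches, so no chance rate applies to this count.

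The response to LPS differed between aged and young cultures, by the interaction term in edgeR, for 52 of the genes named. The log2 fold change was higher in aged cells, by the following differences, for *Csf3* (6.09), *Traf1* (4.00), *Acod1* (2.63), *Saa3* (1.67), *Cxcr4* (1.60), *Rgs7bp* (1.42), *Tcf19* (1.15), *E2f2* (1.14), *Sgsh* (1.12), *Cdc6* (1.05), *Uhrf1* (1.02), *Dhrs3* (0.98), *Rbl2* (0.96), *Rrm2* (0.89), *St6gal1* (0.87), *Vsir* (0.78), *Dnmt1* (0.65), *Snx30* (0.64), *Cdkn2c* (0.63), *P2ry1* (0.63), *Cebpa* (0.63), *Mcm7* (0.61), *E2f1* (0.60), *Smad3* (0.58), *Tk1* (0.49), *Orc1* (0.49), *Pole2* (0.45), *Gins3* (0.40), *Rfc1* (0.34) and *Slc27a4* (0.34). Most of these are genes that fell less in aged cells, and the value of *Csf3*, at 0 counts in untreated aged cultures, depends on the prior count. It was lower in aged cells for *Ccl9* (-1.72), *Ifit2* (-1.30), *Procr* (-1.27), *Stat2* (-1.23), *Il18* (-1.20), *Cd274* (-1.17), *Serpinb9* (-1.15), *Irf1* (-0.85), *Cdkn1a* (-0.83), *Zfp36* (-0.72), *Plek* (-0.52), *Gsdmd* (-0.51), *Hsd17b11* (-0.50), *Casp1* (-0.50), *Nfkbib* (-0.49), *Irf5* (-0.45), *Spire2* (-0.42), *Gramd1a* (-0.41), *Slc12a9* (-0.40), *Myd88* (-0.38), *Tbk1* (-0.28) and *Sod2* (-0.28). Of the 52 differences, 17 were called whichever batch was left out, and 35 were not called without batch 2.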

How the results depend on the processing

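With the batch as a replicate block, 7487 genes were called in the aged response (3799 higher, 3688 lower) and 1156 in the difference between ages (720 and 436). It moved neither total by over 1.5 times, and the list counts of the text that it moved by more are given there. Library sizes alone gave 2172 rises and 5473 falls, a median shift of -0.16, and 881 higher differences. Of the named genes called on either scale, they turned the sign of *Slc27a4* alone (-0.0042). A 2-fold minimum left 1387 called genes (852 rises, 535 falls) and 64 differences (36 and 28), an adjusted p below 0.01 left 328 differences (236 and 92), and DESeq2 called 452 lower differences. Leaving out each batch gave 6174 to 6553 called genes (3149 to 3286 rises, 3025 to 3303 falls) and 189 to 696 differences (148 to 516 and 41 to 274), fewest without batch 2. The difference in the share of the 100 most abundant genes was 1.02 to 1.11 percentage points with a batch left out and 1.06 in a sign-flip of within-batch differences, whose smallest p (0.0625) cannot pass, and 4 against 4 cannot pass after adjustment when 1 measure of 3 is at its smallest p (0.0286). The mitochondrial share differed by -0.281 to -0.194 points with a batch left out, past the threshold without batch 1. A minimum of 10 counts in every library drops genes that start near 0, so the cytokine and antiviral lists shrink under it. For named genes, 3221 checks of the aged fold change kept the side of the threshold, 38 lost the call and 13 gained one. The 3221 include genes called neither time whose sign turned, such as *Csf1r* with library sizes (-0.10). Where no cause is named, the cause was not tested. Levels under the floor of 3 counts could not be told from 0.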

Other observations

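Protein-coding genes made up 10988 of the 12799 genes tested, and 3246 of them rose and 3255 fell with LPS in aged cells. The counts of each class are to be read beside 27.5% of all tested genes higher and 26.9% lower. Of 246 tested lincRNA genes 48 rose and 46 fell, and of 242 antisense genes 47 rose and 42 fell. Processed pseudogenes, 606 of which were tested, had 67 rises and 10 falls. Reads of a pseudogene and of its parent gene, or of an antisense gene and its partner, can be hard to tell apart, and the part of this in the counts was not tested.

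Other runs of at least 4 neighbouring genes that all rose at least 2-fold were the Phf11 genes at chr14:59276913-59395381 (log2 fold changes 1.41 to 5.37), the triggering receptor genes around *Trem1* at chr17:48149126-48275360 (1.41 to 4.06), *Parp14*, *Dtx3l* and *Parp9* with a neighbour at chr16:35832874-35972605 (2.39 to 5.89) and the leukocyte immunoglobulin-like receptor genes around *Lilrb4a* at chr10:51455980-51546848 (1.32 to 4.14), all on GRCm38, with genes at 0 counts untreated set at their bounds. In the promoter windows of genes that rose at least 8-fold, the AP-1 letters (TGANTCA, either strand) stood in 19.2%, against 5.17% of windows of all tested genes, a description without a test.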
